A study of Mus musculus with 16 samples.

Results

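The cytosolic ribosomal protein genes encode the protein parts of the ribosome outside mitochondria. They were taken by symbol from the array's probe-to-gene table: Rpl or Rps followed by a number, with a short suffix where there is one, together with Rpsa, Rplp0, Rplp1 and Rplp2, and without the Rps6 kinases and pseudogenes. This gave 78 symbols. Of these, 74 genes had a probe set that names no other gene, and they are 74 of the 18820 genes tested, 47 of the large (60S) subunit and 27 of the small (40S) subunit. A gene with several such probe sets was represented by its brightest, judged by the mean of all 16 arrays. Rpl22l1, Rpl32, Rpl37a and Rps16 lay only on probe sets with several symbols and are not among the 74.

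Gene expression was measured on whole-transcript arrays in livers of male mice aged 14 to 16 weeks, kept singly on standard chow. The 4 groups of 4 arrays were vanin-1 knockout mice fasted for 24 h (fasted KO), wild type C57Bl/6J mice fasted for 24 h (fasted WT), knockout mice that were fed (fed KO) and wild type mice that were fed (fed WT). Vanin-1 is a pantetheinase, an enzyme on the cell surface that releases pantothenic acid and cysteamine, and the mutant is labelled null with a C57Bl/6J background. That each array came from its own animal is nowhere stated outright, so p-values cover the spread among these samples, which may be technical.

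Each ribosome needs its proteins in fixed proportion, and cells make them from many separate genes in step with ribosomal RNA. In mammals most of these messenger RNAs begin with a C followed by a run of C and T bases (U in the RNA), the terminal oligopyrimidine (TOP) motif, through which the kinase complex mTORC1 sets how well they are translated when nutrients are scarce. Control at this step changes the use of the message and need not change its amount, and arrays measure only the amount. A few ribosomal proteins have paralogues that are made mainly in other tissues, such as Rpl3l in muscle and Rpl10l and Rpl39l in testis.

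The letters of the TOP motif were looked for at the annotated transcription starts. RefSeq promoter sequences (assembly GRCm38.p6) were at hand for 60 of the 74 genes. A run of at least 8 C or T bases within 15 bases of a start was present in 26 of the 60 (43.3%), against 13.9% of all 27025 genes with a promoter sequence. A C at the start itself followed by 4 C or T bases was present in 14 (23.3%), against 3.01% of all genes. The windows of 6 genes that carry both features show where the run lies: each has the 15 bases before the start and the 15 bases from it, 5′ to 3′, so that its 16th letter is the annotated start, with the run in capitals. They are Rps6 (chr4:86857353-86857382, minus strand), Rpl35 (chr2:39005117-39005146, minus strand), Rpl38 (chr11:114668565-114668594, plus strand), Rps18 (chr17:33955651-33955680, minus strand), Rplp2 (chr7:141447636-141447665, plus strand) and Rps27 (chr3:90213634-90213663, minus strand).
Rps6: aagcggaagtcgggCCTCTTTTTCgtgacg
Rpl35: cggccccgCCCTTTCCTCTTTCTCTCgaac
Rpl38: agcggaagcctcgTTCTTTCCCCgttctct
Rps18: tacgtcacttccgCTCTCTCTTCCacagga
Rplp2: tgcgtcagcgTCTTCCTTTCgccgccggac
Rps27: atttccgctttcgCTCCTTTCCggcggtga
The windows of the 3 genes that passed the test in the comparisons below are shown in the same way, and they have no run of that length, so nothing is in capitals. They are Rpl37 (chr15:5116598-5116627, plus strand), Rpl10a (chr17:28328456-28328485, plus strand) and Rps19 (chr7:24884577-24884606, plus strand), at the start furthest upstream where RefSeq lists several.
Rpl37: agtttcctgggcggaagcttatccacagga
Rpl10a: gtggcgcccccccagcggccgcaaactgca
Rps19: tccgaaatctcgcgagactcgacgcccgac
A match or its absence describes these letters only, and annotated starts can differ from those used in liver.

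Other short motifs were counted on both strands over the 250 bases before to 50 bases after the starts. CCGGAAG, the core bound by ETS factors, was in 26 of the 60 promoters (43.3%), against 9.93% of all genes. AAGATGGC, the core bound by YY1, was in 6 (10%), against 3.19%. The GC box GGGCGG was in 36 (60%), against 38.2%, and TATAAA in 7 (11.7%), against 15.7%. Within the 60 genes, the log2 difference between fasted KO and fed KO had a median of 0.007 in the 26 genes with a pyrimidine run and of 0.016 in the 34 without one. Between fasted WT and fed WT these medians were -0.007 and 0.011.

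The arrays were alike in scale: medians over all probe sets lay between 5.19 and 5.29 (log2 intensity) and correlations between arrays of a group between 0.989 and 0.996. Vnn1, the targeted gene, checked the labels, with a log2 difference of -6.83 ± 0.54 (SE) in fasted KO against fasted WT and of -5.02 ± 0.54 in fed KO against fed WT (limma adjusted p = 1.05e-05 and 0.000961). Markers of hepatocytes, the main cells of liver, averaged 12.80 to 12.99 on all 16 arrays, and 13 lymphocyte markers averaged 4.39 to 4.80. The array fasted WT 4 stood apart by acinar pancreas markers, 9 genes that averaged 8.490 there and 3.90 to 4.18 on the other arrays. Fed KO 4 stood apart by acute phase genes, 11 genes that averaged 11.403 there and 8.06 to 9.74 on the other arrays. Counts of called ribosomal protein genes and of called genes in the lists set beside them are given with and without these arrays where they change. Adjusted p-values of marker genes and of single genes in those lists are given with all arrays only.

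Some marker lists moved with fasting, and in others only single markers did. The mean of 14 Kupffer cell and macrophage markers lay between 8.02 and 8.68 in fasted KO, 8.24 and 8.65 in fasted WT, 8.46 and 8.73 in fed KO and 8.54 and 9.10 in fed WT. In each genotype 12 of the 14 had a lower mean on fasting (median log2 differences of -0.308 in KO and -0.373 in WT). Of these, Folr2 was called in both genotypes (-0.80 and -0.58, limma adjusted p = 0.00619 and 0.046) and the macrophage marker Adgre1 in WT (-0.89, adjusted p = 0.0384). Of 3 erythroid markers Alas2, the first enzyme of haem synthesis in red cell precursors, was lower by 0.80 in KO and by 0.82 in WT on the log2 scale (adjusted p = 0.000116 and 0.000227). The other 2, Klf1 and Slc4a1, were not called. The median log2 difference of the 3 was -0.257 in KO and -0.036 in WT, and Slc4a1 differed by -0.01 and 0.10. Of 11 acute phase genes, 4 (36.4%) were called lower in fasted KO than in fed KO, against 4.89% of all genes. In fasted WT against fed WT 1 of them (9.09%) was called lower, against 4.27% of all genes. The mean of the 11 genes was 9.736, 8.608, 8.719 and 11.403 on the fed KO arrays and 8.06 to 8.71 on the fasted KO arrays. Fed KO 1 and fed KO 4 thus stood above, while fed KO 2 and fed KO 3 were near the highest fasted KO array. Of 11 hepatocyte markers, Tat and Hnf4a (18.2%) were called higher in fasted WT than in fed WT, against 3.34% of all genes. The median difference of the 11 was 0.007 in WT, with 7 above 0 and 4 below, and -0.029 in KO. Of the 13 lymphocyte markers Cd4 (7.69%) was called lower in fasted KO than in fed KO, against 4.89% of all genes. In that comparison 9 of the 13 lay above 0 and 4 below, with a median of 0.109. The part of these shifts in the fasting results that follow was not tested.

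As a set, the ribosomal protein genes had overlapping mean levels in all 4 groups. The mean over the 74 genes was 10.266, 10.319, 10.204 and 10.305 on the fasted KO arrays, 10.222, 10.286, 10.302 and 10.244 on the fasted WT arrays, 10.248, 10.265, 10.255 and 10.251 on the fed KO arrays and 10.259, 10.228, 10.221 and 10.343 on the fed WT arrays. No group lay above or below another, and the whole range over 16 arrays was 0.14 on the log2 scale. Group means were 10.27 ± 0.051 (SD, n = 4) in fasted KO, 10.26 ± 0.037 in fasted WT, 10.25 ± 0.007 in fed KO and 10.26 ± 0.056 in fed WT. In tissue, a change in the share of a cell type and a change in RNA per cell cannot be told apart, and values scaled to a common distribution do not show a change shared by all RNA.

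**Figure D1:**
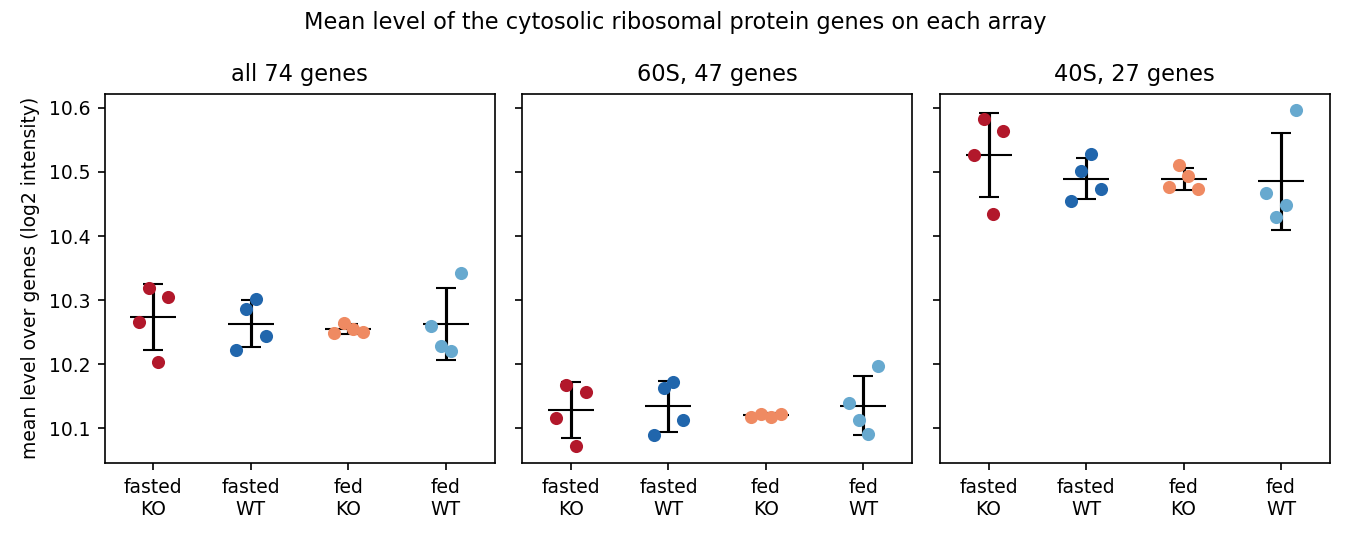
Mean log2 intensity over the ribosomal protein genes on each array (points) for all 74 genes, the 47 of the 60S subunit and the 27 of the 40S subunit, with the group mean and SD (n = 4 arrays). The points of the 4 groups overlap in each panel, and those of all 74 genes lie between 10.204 and 10.343.

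Every one of the 74 genes had its 4 group means within 0.5 of each other. Their spread within groups was small: the residual SD had a median of 0.101 (quartiles 0.084 and 0.132), against 0.148 (0.117 and 0.192) over all 18820 genes, and 62 of the 74 lay below that median. Among genes with a mean level over 10 it was 0.096 in 52 ribosomal protein genes and 0.131 in all 1307 such genes. Rps6, whose protein is phosphorylated by the S6 kinases downstream of mTORC1, had the smallest residual SD of the 74, at 0.048. It measured 12.66, 12.72, 12.67 and 12.70 in fasted KO, 12.71, 12.78, 12.70 and 12.70 in fasted WT, 12.63, 12.69, 12.67 and 12.82 in fed KO and 12.72, 12.70, 12.66 and 12.69 in fed WT. The log2 difference of Rps6 was -0.01 (95% interval -0.14 to 0.11) in fasted KO against fed KO and 0.03 (-0.10 to 0.16) in fasted WT against fed WT.

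Fasting was compared with feeding within knockout mice first. In this comparison 3 genes passed the test (limma, adjusted p under 0.05 over all genes), namely Rpl37, Rpl10a and Rps19, all higher in fasted KO, and none was lower. That is 3 of 74 (4.05%), where 9.42% of all 18820 genes passed in either direction, 4.53% higher and 4.89% lower. The 74 log2 differences had a median of 0.016, against 0.020 over all genes, with 42 above 0 and 32 below, and ran from -0.30 (Rpl36a) to 0.39 (Rps19). At an unadjusted p under 0.05 there were 12 of the 74 (16.2%), against 22.1% of all genes. In 70 of the 74 genes the 95% interval excluded a change beyond 1.5-fold in either direction, and the widest bounds were -0.59 for Rpl36a and 0.69 for Rps26.

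Rpl37, a zinc-binding protein of the large subunit, measured 11.47, 11.45, 11.31 and 11.31 in fasted KO and 11.14, 11.13, 10.83 and 11.17 in fed KO. The 2 groups did not overlap, and fed KO 3 was the lowest array. The log2 difference was 0.31 ± 0.08 (SE), or 1.24-fold, with an adjusted p of 0.0197. In WT livers it measured 11.33, 11.25, 11.26 and 11.19 fasted and 11.24, 11.23, 11.24 and 11.37 fed, which overlap, with a difference of -0.01 (95% interval -0.18 to 0.16). The call was lost without fasted KO 1 (adjusted p = 0.0666), fasted KO 2 (0.0566) or fed KO 3 (0.0667), with the difference between 0.23 and 0.35 whichever array was left out. The other Rpl37 probe set gave 0.27 in the same comparison and also passed.

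Rpl10a, a protein of the L1 stalk through which spent transfer RNA leaves, measured 11.79, 11.82, 11.78 and 11.83 in fasted KO and 11.66, 11.59, 11.37 and 11.57 in fed KO. All 4 fasted KO arrays lay above all 4 fed KO arrays. The log2 difference was 0.26 ± 0.07 (SE), or 1.19-fold, with an adjusted p of 0.0369. In WT livers the values were 11.81, 11.79, 11.91 and 11.68 fasted and 11.69, 11.68, 11.77 and 11.83 fed, and these overlapped. The adjusted p rose above the threshold without any 1 of fasted KO 1 to 4 (0.0731, 0.0784, 0.0621 and 0.0896) or of fed KO 2 to 4 (0.0524, 0.127 and 0.0586), and with a replicate block (0.0695). The 4 probe sets of Rpl10a gave differences from 0.18 to 0.26.

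Rps19, the gene mutated most often in human Diamond-Blackfan anaemia, measured 10.23, 10.21, 9.94 and 9.90 in fasted KO and 9.73, 9.82, 9.49 and 9.70 in fed KO. These groups did not overlap either. The difference was 0.39 ± 0.11 (SE), or 1.31-fold, with an adjusted p of 0.0372. In WT livers Rps19 measured 9.94, 9.85, 9.73 and 9.86 fasted and 9.68, 10.06, 9.67 and 10.07 fed, and the fed arrays lay on both sides of the fasted ones. It was no longer called without fasted KO 1 (0.122), fasted KO 2 (0.104), fed KO 1 (0.0635), fed KO 3 (0.124) or fed KO 4 (0.0665). Rps19 had a single probe set.

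**Figure D2:**
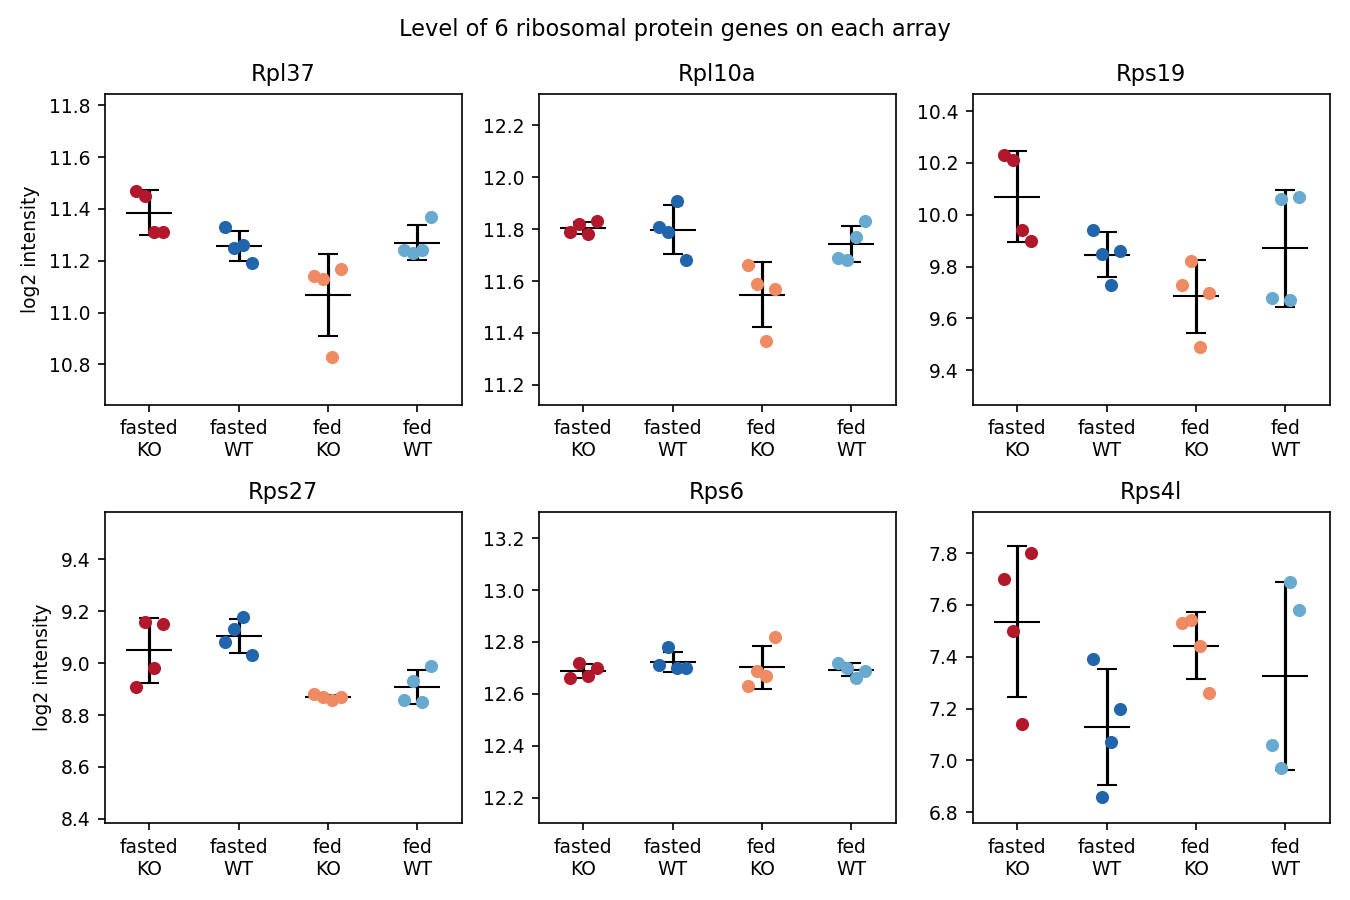
Log2 intensity of 6 ribosomal protein genes on each array (points), with the group mean and SD (n = 4 arrays); each panel spans 1.2 log2 units around the gene's mean. Rpl37, Rpl10a and Rps19 are higher in fasted KO than in fed KO with no overlap, Rps6 lies between 12.63 and 12.82, and Rps4l varies widely within groups.

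The count of 3 rested on single arrays. It was 0 without fasted KO 1, fasted KO 2 or fed KO 3, and 1 (Rpl37) without fed KO 4. Without both arrays that stood apart it was 1 (Rpl37), and it was 0 without fasted KO 1, fed KO 4 and fed WT 2 together, 3 arrays with an added 2 in their names whose sense is not given. In a fit of only the knockout arrays it was 1 (Rps19).

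Of the other genes, 9 did not overlap between fasted KO and fed KO without passing the test, or 12 of 74 in all with the 3 called, where 17.0% of all genes did not overlap. Of the 12, 7 were higher in fasted KO and 5 lower. Among the lower ones was Rps27l, a paralogue of Rps27 that p53 activates, at 10.91, 11.14, 11.14 and 10.97 in fasted KO and 11.19, 11.27, 11.33 and 11.34 in fed KO. Its difference was -0.24 ± 0.09 (SE), and the adjusted p was 0.0905. The parent gene Rps27 went the other way, at 8.91, 9.16, 8.98 and 9.15 in fasted KO and 8.88, 8.87, 8.86 and 8.87 in fed KO, with a difference of 0.18 ± 0.07 and an adjusted p of 0.134. The difference between the 2 genes was not tested.

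In wild type mice none of the 74 genes passed the test between fasted WT and fed WT, where 7.61% of all genes did, 3.34% higher and 4.27% lower (limma, adjusted p under 0.05). The smallest adjusted p was 0.105, for Rps27. At an unadjusted p under 0.05 there were 4 (Rps27, Rps14, Rpl9 and Rps28), or 5.41%, against 21.2% of all genes. The median log2 difference was -0.001, against 0.011 over all genes, with 36 above 0 and 38 below, and the values ran from -0.19 (Rps4l) to 0.20 (Rps27). With each array centred on its median, 56 lay above 0 and 18 below, and the calls over all genes turned to 1014 higher and 542 lower, against 629 higher and 803 lower as deposited. All 74 intervals, each from the probe set used for the gene, excluded a change beyond 1.5-fold, with the widest bounds at -0.55 for Rps4l and 0.49 for Rps9. The other Rps4l probe set gave -0.36 in WT. In KO it gave -0.11, against 0.09 for the probe set used. The smallest differences were those of Rps3 in KO and Rpl6 in WT, both of which round to 0. Rps2, Rps14, Rps27 and Rps28 did not overlap between the groups, 4 of 74, where 12.4% of all genes did not overlap.

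Rps27, a small subunit protein with a zinc finger, measured 9.08, 9.13, 9.18 and 9.03 in fasted WT and 8.86, 8.93, 8.85 and 8.99 in fed WT. All fasted WT arrays lay above all fed WT arrays, by a mean of 0.20 ± 0.07 (SE). With each array centred on its own median, a scaling that moved the median difference of all genes in this comparison to 0.083, Rps27 was the 1 gene called (adjusted p = 0.03). Rps14, a small subunit protein whose loss in 1 copy underlies the anaemia of a human myelodysplastic syndrome, measured 10.61, 10.75, 10.74 and 10.68 in fasted WT and 10.51, 10.37, 10.51 and 10.59 in fed WT, a difference of 0.20 ± 0.09 with an adjusted p of 0.216. The knockout livers gave 0.19 ± 0.09 for the same gene, with 10.90, 10.67, 10.70 and 10.78 fasted and 10.55, 10.72, 10.71 and 10.32 fed, and these groups overlapped.

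**Figure D3:**
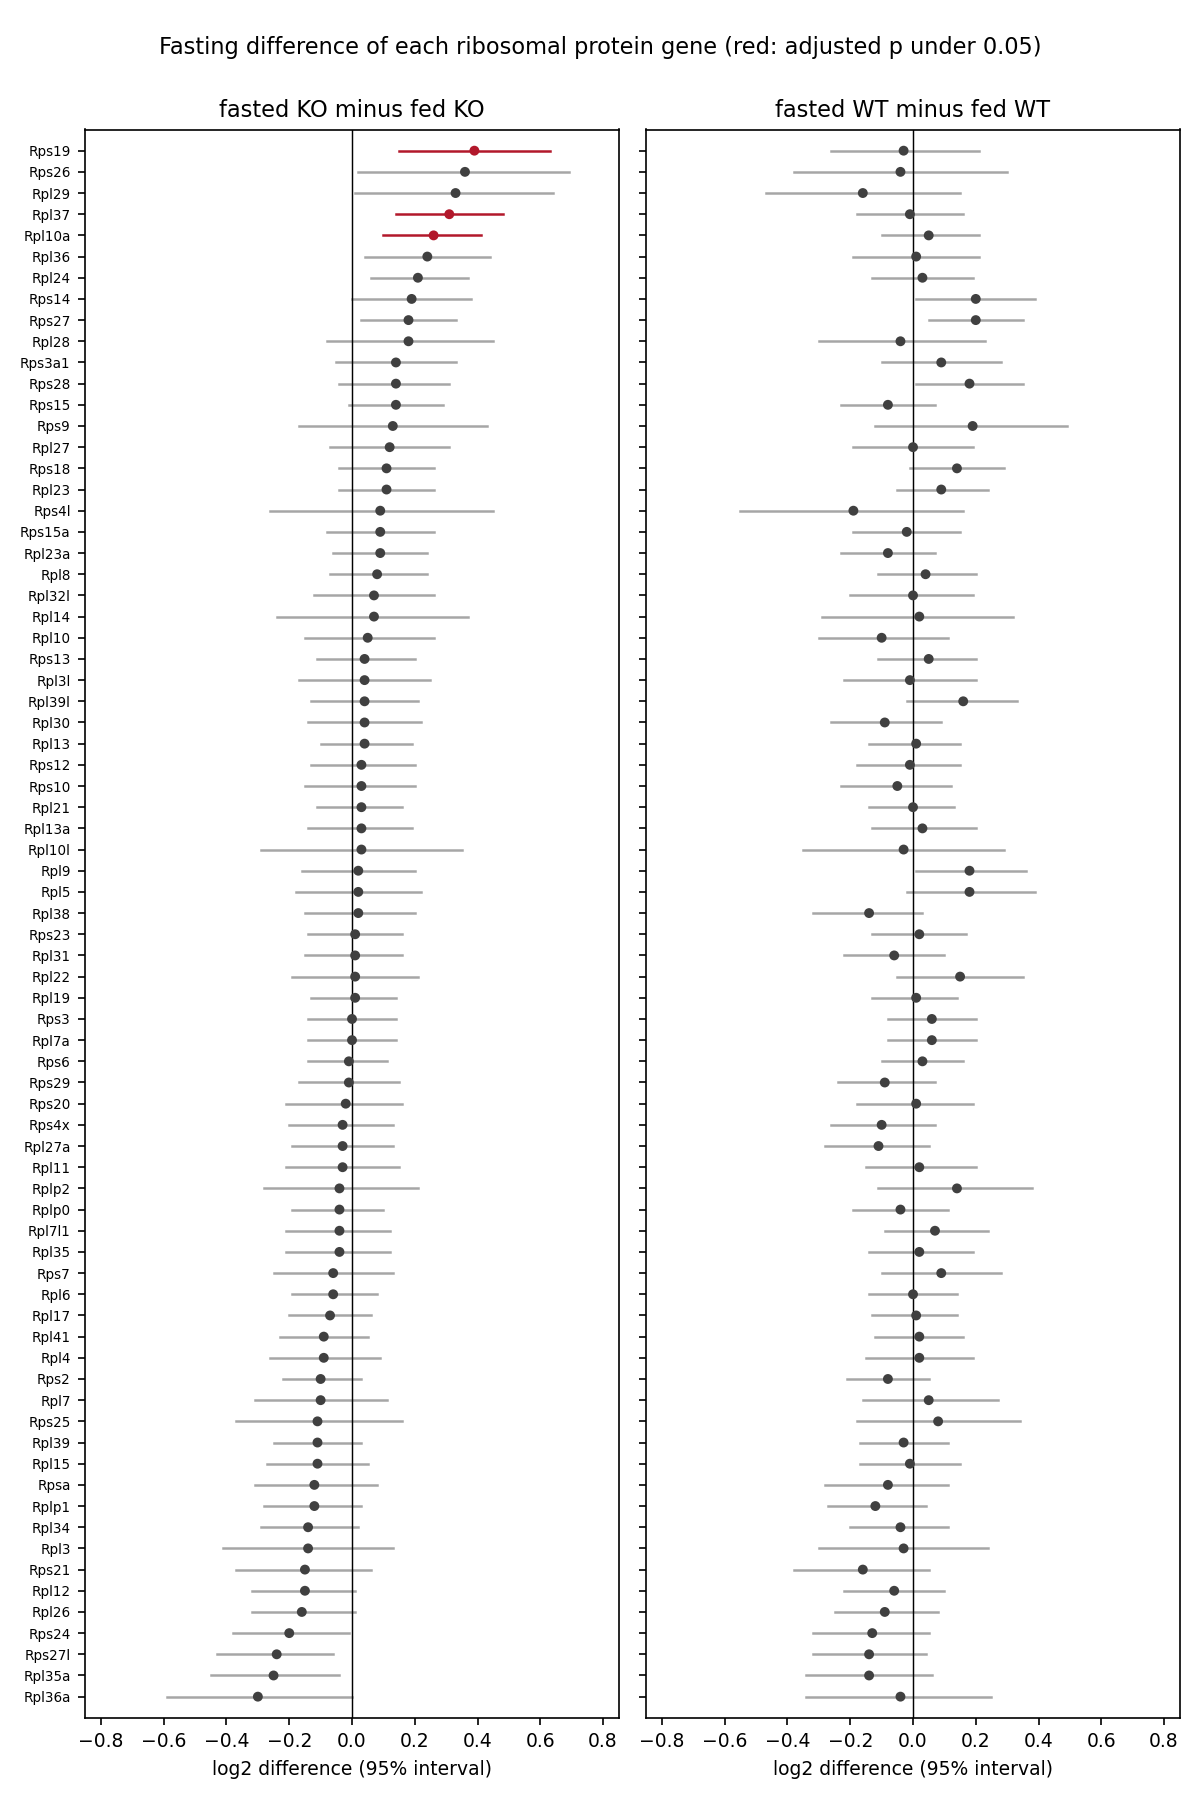
Log2 difference of each of the 74 genes between fasted KO and fed KO (left) and between fasted WT and fed WT (right), with 95% intervals, ordered by the left panel. Red marks the 3 genes with an adjusted p under 0.05; the values run from -0.30 to 0.39 in KO and from -0.19 to 0.20 in WT.

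Knockout and wild type livers were then compared within each feeding state. In fasted KO against fasted WT none of the 74 genes passed the test, where 0.0159% of all genes did, and the median difference was -0.002. The gene Rps4l, a paralogue of Rps4x, was the only 1 with an unadjusted p under 0.05 (0.0292, adjusted p = 0.867 with limma), which is 1.35% of the genes, against 5.49% of all genes. It measured 7.70, 7.50, 7.14 and 7.80 in fasted KO and 7.39, 6.86, 7.07 and 7.20 in fasted WT, and the groups overlapped. No gene of the 74 was without overlap, where 3.15% of all genes were. In 73 of the 74 the interval lay within 1.5-fold.

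In fed KO against fed WT none passed either, where 0.00531% of all genes did, and 7 had an unadjusted p under 0.05 (9.46%, against 5.76% of all genes), all of the large subunit. Of these 7, Rpl10, Rpl10a, Rpl29, Rpl30, Rpl36 and Rpl37 had lower means in fed KO, by 0.19 to 0.33 on the log2 scale, and Rpl7l1 a higher one, by 0.17, with adjusted p-values of 0.855 to 0.859. Rpl10a and Rpl37 had no overlap, 2 of 74, where 3.12% of all genes had none. Both had also passed in fasted KO against fed KO, and the 2 comparisons share the fed KO arrays. The median difference over the 74 genes was 0.018, against -0.007 over all genes, and 72 intervals lay within 1.5-fold.

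The difference between the fasting responses of KO and WT was tested as an interaction. No gene of the 18820 passed (0%), and 4 of the 74 (5.41%) had an unadjusted p under 0.05, against 4.91% of all genes. These were Rpl37 (0.33 ± 0.11, SE), Rps19 (0.41 ± 0.16), Rpl29 (0.48 ± 0.21) and Rps15 (0.22 ± 0.10), each with an adjusted p of 0.948. So the calls in knockout mice and the lack of them in wild type mice were not shown to differ. The intervals of the interaction were wider, with 68 of 74 within 1.5-fold and the outer bounds at -0.67 (Rpl36a) and 0.93 (Rpl29).

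The subunits were also taken apart. In fasted KO against fed KO, 2 of 47 genes of the 60S subunit and 1 of 27 of the 40S subunit were called higher, or 4.26% and 3.70%, near the 4.53% of all genes, with median differences of 0.010 and 0.028, against 0.020 over all genes. In fasted WT against fed WT neither subunit had a called gene, with a median of -0.014 in the 40S genes and one that rounds to 0 in the 60S genes.

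The stalk of the large subunit, which recruits the elongation factors, is built from Rplp0, Rplp1 and Rplp2. Rplp0 measured 12.49, 12.59, 12.46 and 12.53 in fasted KO, 12.50, 12.54, 12.59 and 12.48 in fasted WT, 12.50, 12.55, 12.49 and 12.69 in fed KO and 12.48, 12.64, 12.48 and 12.66 in fed WT, with complete overlap. Its log2 difference was -0.04 ± 0.07 (SE) both in fasted KO against fed KO and in fasted WT against fed WT. Rplp1 was 12.33 ± 0.08 in fasted KO, 12.30 ± 0.11 in fasted WT, 12.45 ± 0.04 in fed KO and 12.42 ± 0.10 in fed WT (SD, n = 4 each). The fasted arrays averaged 0.12 lower in each genotype, with adjusted p-values of 0.36 in KO and 0.407 in WT. The group means of Rplp2 lay below the array medians, at 5.05 ± 0.14, 5.15 ± 0.08, 5.09 ± 0.29 and 5.01 ± 0.08 in the same order of groups. Rplp2 had a single probe set, so little message and poor detection by that probe set cannot be told apart.

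Rpl5 and Rpl11 enter the ribosome together with 5S ribosomal RNA and, when assembly fails, bind Mdm2. Rpl5 averaged 11.27 ± 0.14 in fasted KO, 11.30 ± 0.17 in fasted WT, 11.25 ± 0.11 in fed KO and 11.12 ± 0.09 in fed WT (SD, n = 4 each). The difference was 0.02 ± 0.10 (SE) in fasted KO against fed KO and 0.18 ± 0.10 in fasted WT against fed WT (adjusted p = 0.292). Rpl11 measured 10.73, 10.99, 10.99 and 11.01 in fasted WT and 11.01, 10.82, 10.85 and 10.96 in fed WT, with fasted WT 1 alone at the bottom, and a difference of 0.02 ± 0.08. Rpsa, also known as the laminin receptor, measured 10.95, 10.99, 10.79 and 10.91 in fasted KO, 10.74, 10.89, 11.01 and 10.98 in fasted WT, 11.08, 11.00, 11.10 and 10.92 in fed KO and 10.92, 10.88, 10.88 and 11.27 in fed WT. The arrays of all 4 groups overlapped.

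None of the tissue-restricted paralogues was called in any comparison. Rpl3l, known from muscle, averaged 3.55 ± 0.04 in fasted KO, 3.55 ± 0.14 in fasted WT, 3.50 ± 0.19 in fed KO and 3.56 ± 0.15 in fed WT (SD, n = 4 each). Rpl39l, known from testis, averaged 2.94 ± 0.09, 3.08 ± 0.11, 2.91 ± 0.11 and 2.92 ± 0.10 in the same order of groups. With Rpl10l and Rplp2 they were the 4 genes of the 74 whose group means all lay below the array medians. Their parents Rpl3, Rpl10 and Rpl39 had differences of -0.14, 0.05 and -0.11 in fasted KO against fed KO and of -0.03, -0.10 and -0.03 in fasted WT against fed WT, and none was called. Rpl7l1, related to Rpl7, measured 9.67, 9.65, 9.69 and 9.95 in fed KO and 9.47, 9.52, 9.59 and 9.69 in fed WT, and the highest value was on fed KO 4, the array with high acute phase genes, whose part in it was not tested.

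Within groups some of the genes shared a pattern. Deviations from the group means had a first principal component that held 35.5% of their variance in the 74 genes, against 27.6% in the 1307 genes with a mean level over 10 and 17.0% in all genes. These sets differ in size, which can alter the share. Genes were not scaled before this component was taken, so those with a wide spread weigh most in it. Rps26, Rpl29 and Rpl28 lay at one end of it and Rpl36a, Rps25 and Rps9 at the other, genes that were chosen here after their values were seen. Rpl29, a large subunit protein, measured 11.76, 12.04, 11.80 and 11.56 in fasted KO, 12.08, 11.60, 11.53 and 11.32 in fasted WT, 11.62, 11.50, 11.28 and 11.46 in fed KO and 11.56, 11.98, 11.65 and 11.97 in fed WT. The probe set used for Rpl29 lists no RefSeq transcript of that gene. Rpl29 was highest on fasted KO 2, fasted WT 1, fed KO 1 and fed WT 2 of their groups. Rps26, which lines the exit of the messenger RNA, measured 11.26, 11.80, 11.48 and 11.22 in fasted KO, 11.81, 11.19, 11.35 and 11.12 in fasted WT, 11.26, 11.05, 11.14 and 10.88 in fed KO and 11.11, 11.67, 11.29 and 11.54 in fed WT, and peaked on the same 4 arrays.

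Rpl36a moved the opposite way, at 11.37, 11.15, 11.22 and 11.62 in fasted KO, 11.02, 11.52, 11.58 and 11.49 in fasted WT, 11.58, 11.58, 11.66 and 11.72 in fed KO and 11.73, 11.10, 11.40 and 11.54 in fed WT. It was lowest on fasted KO 2, fasted WT 1 and fed WT 2. Rps25 was likewise lowest on those arrays, at 10.88 on fasted KO 2, 10.78 on fasted WT 1 and 10.84 on fed WT 2. The same 3 arrays had the highest median over all genes tested within their groups, at 5.79 against 5.70 to 5.75 in fasted KO, 5.80 against 5.66 to 5.72 in fasted WT and 5.83 against 5.75 to 5.79 in fed WT. In fed KO the medians were 5.77, 5.77, 5.79 and 5.76, so fed KO 1, where Rpl29 and Rps26 peaked, was not the highest. The part of these scale differences in the pattern was not tested. Rps26, Rpl29 and Rpl36a had the widest or nearly the widest differences in fasted KO against fed KO (0.36, 0.33 and -0.30) without passing the test, with adjusted p-values of 0.202, 0.204 and 0.223.

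**Figure D4:**
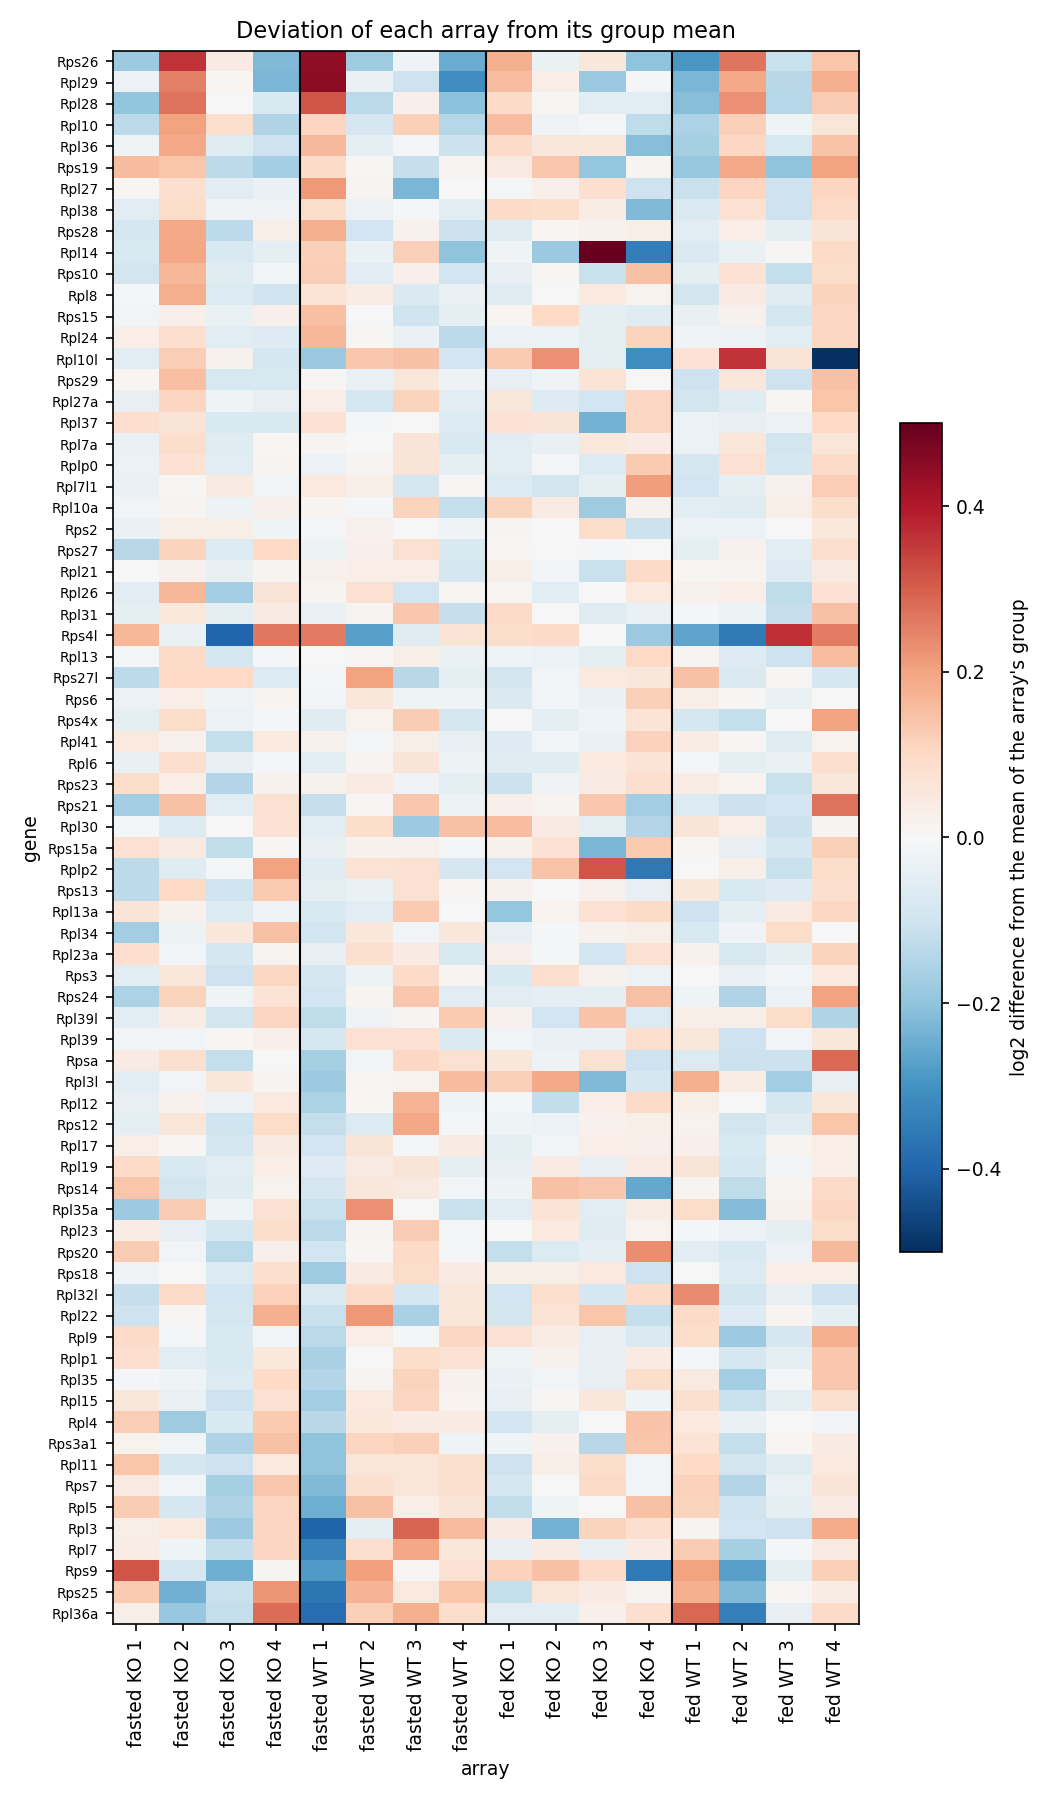
Difference of each array from the mean of its own group, in log2 units, for the 74 genes (rows, ordered by the first principal component of these differences) on the 16 arrays (columns), in colours that end at 0.5 in either direction. Fasted KO 2, fasted WT 1 and fed WT 2 are high for the genes at the top, such as Rps26 and Rpl29, and low for those at the bottom, such as Rpl36a and Rps25.

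Ribosomal protein genes have many processed copies in the genome, and 56 of the 74 had more than 1 probe set with the same single symbol, 385 probe sets in all and up to 41 for Rpl21. Such probe sets can share sequence with near-identical copies, so they are not independent and the gene a signal comes from is uncertain. Of the 385, 338 list a RefSeq transcript of their own gene, as do the probe sets used for 72 of the 74 genes. Those used for Rpl29 and Rpl21 do not, and the other probe sets of these genes include some that do and some that do not. In a fit of all 35556 probe sets, 5 of the 385 (1.3%) passed between fasted KO and fed KO, all higher, where 5.50% of all probe sets passed. They were 2 of Rpl37, 2 of Rpl10a and 1 of the 10 of Rpl36, and neither the Rps19 probe set (adjusted p = 0.0652) nor the Rpl10a probe set used in the gene test (0.0527) passed in this larger fit. The 2 of Rpl10a that passed were others (0.0441 and 0.0286). None of the 385 passed in the other comparisons. The 24 probe sets of Rpl29 all lay above 0 in fasted KO against fed KO, from 0.24 to 0.35, and all below 0 in fasted WT against fed WT, from -0.20 to -0.15. Of 62 probe sets that list a ribosomal protein gene with other symbols, 1 passed, lower in fasted KO than in fed KO.

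Genes that build and serve the ribosome were set beside its proteins, from lists chosen with earlier results of these data known. The list of ribosome biogenesis and RNA polymerase I holds 78 genes, 74 of them measured. Between fasted KO and fed KO 14 of the 74 (18.9%) were higher and none lower, where 4.53% of all genes were higher, and the median log2 difference was 0.172, against 0.020 over all genes. Between fasted WT and fed WT 8 (10.8%) were higher and none lower, where 3.34% of all genes were higher, and the median was 0.158, against 0.011. Noc2l, a nucleolar protein whose yeast relative acts in large subunit assembly, measured 7.65, 7.63, 7.69 and 7.81 in fasted KO, 7.65, 7.71, 7.71 and 7.83 in fasted WT, 7.40, 7.35, 7.37 and 7.31 in fed KO and 7.33, 7.36, 7.47 and 7.46 in fed WT. Its fasted arrays lay above its fed arrays in both genotypes, by 0.34 ± 0.07 (SE) in KO and 0.32 ± 0.07 in WT (adjusted p = 0.0037 and 0.00707). Polr1d, a subunit shared by RNA polymerases I and III, and Pes1, which acts in maturation of the large subunit, were higher in fasted KO than in fed KO by 0.51 and 0.46 (adjusted p = 0.00365 and 0.00891). Nol6 and Rrp12, processing factors of the nucleolus, were higher in fasted WT than in fed WT by 0.36 and 0.61 (adjusted p = 0.0151 and 0.0142).

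These counts moved with single arrays. The 14 in knockout mice became 7 without fasted KO 1, 7 without fasted KO 2, 8 without fasted KO 4, 6 without fed KO 1 and 9 without fed KO 4. The 8 in wild type mice became 1 without fasted WT 4, the array with the pancreas markers, whose mean over the biogenesis genes (7.846) was the highest of the 16. They became 5 without fed WT 1, 4 without fed WT 2 and 4 without fed WT 3. Whether the biogenesis genes differed from the ribosomal protein genes was not tested.

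Translation factors and other TOP messages, 21 of 26 measured, had 3 genes higher in fasted KO than in fed KO (Npm1, Nap1l1 and Eif3k), or 14.3%, against 4.53% of all genes. In fasted WT against fed WT 2 were higher (Npm1 and Nap1l1), or 9.52%, against 3.34% of all genes. None was lower in either, and the median differences were 0.111 and 0.098. Npm1, or nucleophosmin, averaged 10.36 ± 0.13 in fasted KO, 10.40 ± 0.13 in fasted WT, 9.90 ± 0.04 in fed KO and 10.05 ± 0.04 in fed WT (SD, n = 4 each). The fasted arrays stood above the fed ones without overlap, by 0.46 ± 0.08 (SE) in KO and 0.35 ± 0.08 in WT (adjusted p = 0.00128 and 0.0121). The histone chaperone Nap1l1 was higher by 0.42 in KO and 0.46 in WT (adjusted p = 0.0201 and 0.015), and the initiation factor subunit Eif3k by 0.26 in KO (adjusted p = 0.0495). The count in KO was 1 without fasted KO 3, fasted KO 4, fed KO 1 or fed KO 3. In WT it was 1 without fed WT 4 and 4 without fasted WT 1. Fau, whose product is cut to yield the small subunit protein eS30, had differences of 0.15 and 0.09 and was not called.

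**Figure D5:**
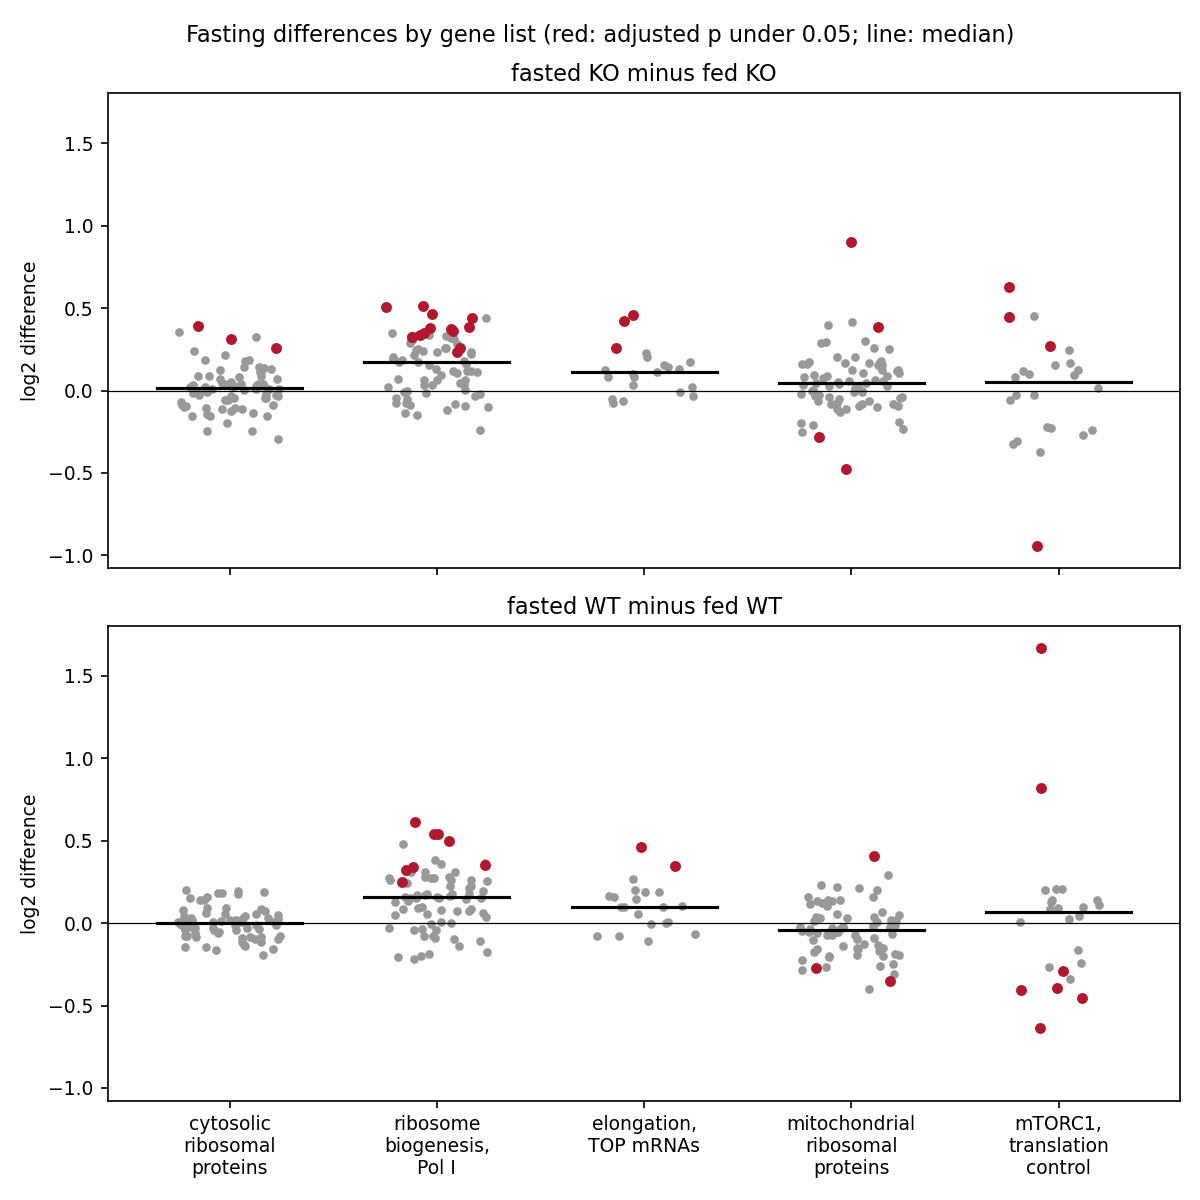
Log2 difference of each gene (points) in 5 gene lists between fasted KO and fed KO (top) and between fasted WT and fed WT (bottom); red points had an adjusted p under 0.05 and black lines are medians. The medians of the ribosomal protein genes lie at 0.016 and -0.001, and those of the biogenesis genes at 0.172 and 0.158.

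The mitochondrial ribosomal protein genes, the counterpart inside mitochondria, had 74 measured members, of which 4 (5.41%) were called in fasted KO against fed KO and 3 (4.05%) in fasted WT against fed WT, below the 9.42% and 7.61% of all genes. Mrpl17 was higher by 0.90 ± 0.09 (SE) in fasted KO against fed KO and by 0.41 ± 0.09 in fasted WT against fed WT (adjusted p = 1.93e-05 and 0.0134). It measured 8.98, 9.00, 8.95 and 8.97 in fasted KO, 9.04, 8.70, 8.71 and 8.59 in fasted WT, 8.24, 8.04, 7.93 and 8.09 in fed KO and 8.26, 8.53, 8.31 and 8.30 in fed WT, with no overlap between fasted and fed arrays in either genotype. Mrpl36 was also higher in fasted KO (0.39 ± 0.07), while Mrps25 and Mrps27 were lower by 0.28 and 0.47 on the log2 scale. Mrpl1 and Mrpl35 were lower in fasted WT than in fed WT, by 0.35 and 0.27 on the log2 scale. The 2 lower calls in KO became 0 without fasted KO 1 or fed KO 3 and 1 without fasted KO 2 or fasted KO 4. The 2 lower calls in WT became 0 without fasted WT 4, 1 without fasted WT 2, fasted WT 3 or fed WT 3 and 4 without fasted WT 1, and the 1 higher call became 2 without fasted WT 1 or fasted WT 3.

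Of 24 genes of mTORC1 and translation control, 3 were higher (Sesn2, Mtor and Rptor) and 1 lower (Eef2k) in fasted KO than in fed KO, or 12.5% and 4.17%, against 4.53% and 4.89% of all genes. In fasted WT against fed WT 2 were higher (Ddit4 and Sesn2) and 5 lower, with Eef2k, Tsc1 and Flcn at the smallest p of the 5. These are 8.33% and 20.8%, against 3.34% and 4.27% of all genes. Eef2k, the kinase that slows elongation by inactivating elongation factor eEF2, measured 5.86, 5.70, 5.59 and 6.03 in fasted KO, 6.15, 6.17, 5.80 and 5.82 in fasted WT, 6.67, 6.55, 7.08 and 6.66 in fed KO and 6.46, 6.63, 6.96 and 6.42 in fed WT. All fasted arrays lay below all fed arrays, and the difference was -0.95 ± 0.14 (SE) in KO and -0.63 ± 0.14 in WT (adjusted p = 0.000395 and 0.0107). Sesn2, an inhibitor of mTORC1 that senses leucine, was higher by 0.63 in KO and by 0.82 in WT (adjusted p = 0.0343 and 0.00935). Ddit4, another inhibitor of mTORC1, was higher by 1.67 ± 0.37 in fasted WT than in fed WT (adjusted p = 0.0101). In fasted KO Ddit4 measured 6.12, 6.82, 6.36 and 7.29, against 6.22, 5.81, 5.96 and 6.81 in fed KO, and these overlapped. Leaving out each array in turn gave 1 to 4 higher and 1 to 3 lower calls in KO, and 2 to 3 higher and 1 to 6 lower calls in WT. In KO the higher count was 1 without fasted KO 1, fasted KO 4, fed KO 1, fed KO 3 or fed KO 4, and the lower count was 2 without fasted KO 3, fasted WT 4, fed KO 1 or fed WT 3 and 3 without fed KO 4. In WT the lower count was 1 without fed WT 1 and 2 without fasted WT 2, fasted WT 3, fasted WT 4, fed KO 1, fed WT 2 or fed WT 4. It was 3 without fasted KO 1, fasted KO 4, fed KO 2 or fed KO 3.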

How the data were processed

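The values were log2 intensities that the authors had normalized with RMA (robust multi-array averaging, which corrects background, makes the arrays' distributions equal and sums probes into probe sets), per the submitters' processing notes; the version of RMA and the library of the array are not given in these sources. Array values have no read depth, and precision is limited by the 4 arrays in each group. The table held 35556 probe sets: 21218 had 1 gene symbol, 1881 had several and were left out of the gene tests, and 12457 were not named. Of several probe sets of a gene the one with the highest mean was kept, which left 18820 genes.

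All 16 arrays entered 1 limma fit of 4 group means (limma 3.58.1, R 4.3.3, 12 residual and 4.66 prior degrees of freedom), with p-values adjusted by Benjamini and Hochberg's method over all genes, a threshold of 0.05 and 95% intervals for single genes without adjustment. The fit was also run on simulated data with independent noise for each gene, and no result given here rests on that run. The members and gene lists were chosen with earlier results of these data known. Named were the called members, those with the smallest p where none was called, fixed members by role, the most even member, and up to 3 called genes of each list in each direction; genes of the pattern within groups were added after their values were seen. Alternatives changed the scaling, filter, probe set rule, variance prior, array weights, arrays in the fit and blocks, and left out each array in turn. The titles number the replicates in each group, but same-numbered arrays did not deviate together (24 pairs of arrays, r from -0.22 to 0.21, 4 of them over 0.1), so the numbers were not taken to pair the samples. The row letters in the array names differ between the groups, so position and group cannot be told apart. Promoters came from RefSeq (GRCm38.p6).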

Additional observations from a re-analysis of the deposited data

Results flagged for a closer look

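In 6 of 124 checks, over named genes and groups, 1 array of a group of 4 lay far from the other 3 by Dixon's test, and chance flags about 1 in 20 groups. Rpl37 had such an array in both fed groups, at 10.83 in fed KO, below 11.13 to 11.17 on the others, and at 11.37 in fed WT, above 11.23 to 11.24. Rpl7l1 was at 9.95 on 1 fed KO array, above 9.65 to 9.69. Rpl11 was at 10.73 on 1 fasted WT array, below 10.99 to 11.01, and Rps6 at 12.78 on another, above 12.70 to 12.71. Rpsa was at 11.27 on 1 fed WT array, above 10.88 to 10.92.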

How the results depend on the processing

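The count of 3 called genes between fasted KO and fed KO ranged from 0 to 3 when each array was left out in turn. It was 1 with only the groups compared, 0 without the 3 arrays with an added 2 in their names, 1 without fasted WT 4 and fed KO 4, and 5 probe sets of 385 when every probe set was fitted. Centring each array on its median gave 1 called gene between fasted WT and fed WT. It moved the median difference of the members to 0.071 there and to -0.053 for the interaction. In fasted KO against fasted WT it turned 35 members above 0 and 39 below into 21 and 53. The median over all genes moved too, to 0.083, -0.037 and -0.028 in the same order of comparisons. Counts in fasted KO against fasted WT, in fed KO against fed WT and for the interaction were 0 in each alternative run. With the replicate block, 2 genes were called between fasted KO and fed KO (Rpl37 and Rps19) and 0 in the other comparisons. Of the list counts the block moved the lower mitochondrial ones in KO to 1, the higher mTORC1 ones in KO to 1 and the lower mTORC1 ones in WT to 3. The biogenesis counts ranged from 4 to 20 in KO and from 1 to 17 in WT over all alternatives. The Vnn1 call in fed KO against fed WT was lost with only the groups compared (limma adjusted p = 0.163) and without the 3 arrays with that added 2 (0.0759). The cause of these changes was not tested. A fit of only the groups compared was not run for the interaction, which needs all 4.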
